A study of Mus musculus with 10 samples.

Results

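RENCA is a mouse kidney cancer cell line, and 9 genes that mark kidney lineage and epithelial state were followed in tumours grown from it. They are the nephron transcription factors Pax8, Pax2 and Lhx1, the epithelial adhesion genes Epcam and Cdh1, the cadherin Cdh2, and the intermediate filament genes Krt8, Krt18 and Vim. The members were chosen by name, with earlier results of these data known, and all 9 were present among the 18603 genes of the count table. Tumours grew from RENCA cells injected under the skin of female Balb/c mice. In the treated group, SLR14, a 3pRNA that activates the RNA sensor RIG-I, was injected into the tumour in lipid nanoparticles, and the control group received PBS. Each group held 5 tumours from 5 mice, given 3 injections 48 h apart from a size of 100 to 150 mm3 and harvested 24 h after the last. Both groups share the same cell line, with no normal kidney beside it, and effects of SLR14 and of its nanoparticle cannot be told apart.

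Pax2 and Pax8 are paired-box transcription factors that the kidney needs to form and that many renal cancers keep, and Lhx1 is a LIM homeobox factor of the early nephron. Epithelial cells hold together through E-cadherin, the product of Cdh1, and carry keratin filaments, in which a type II chain such as keratin 8 pairs with a type I chain such as keratin 18. In an epithelial-mesenchymal transition, cells lose Cdh1 and Epcam and gain Cdh2 and Vim, under factors of the Snail, Twist and Zeb families. Whole tumours also hold fibroblasts, macrophages and vessels, which make vimentin, so fewer cells of a type and less RNA per cell cannot be told apart in these values.

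Total counts per tumour ranged from 17931895 to 39842608. The quasi-likelihood test of edgeR was run on 15883 genes, and 0.963% differed at a Benjamini-Hochberg adjusted p of 0.05, 0.674% higher and 0.29% lower in SLR14 than in PBS tumours. The groups' ranges did not overlap for 1.92% of genes in the higher and 1.32% in the lower direction. Levels are given in CPM, a gene's counts scaled to library size (TMM). Markers of skin keratinocytes stood out in 2 tumours. Their summed level was 101 CPM in SLR14 5, against 3.21 to 5.76 CPM in the other SLR14 tumours, and 55.3 CPM in PBS 4, against 2.6 to 4.26 CPM in the other PBS tumours. Of the 12 keratinocyte markers 4 had a row in the count table, and 1 passed the low-count filter. Those with no row included Krt5, Krt15 and Krt1. For every list, the genes called analysed are those with a row in the count table, and the others could not be read. Neutrophil markers summed to 25.8 to 58.9 CPM in SLR14 and 14.3 to 22.8 CPM in PBS tumours. Of 6 genes past the low-count filter, edgeR called 3 higher and limma voom called 0. DESeq2 was run without that filter, and of the 8 neutrophil genes analysed it called 5. Of 12 mammary luminal markers 5 were analysed, and their sum was 43.5 to 78.2 CPM in SLR14 and 74.3 to 92.9 CPM in PBS tumours. Most of that sum was Trf, the transferrin gene, which other tissues also express (means 54.6 CPM in SLR14 and 75.3 CPM in PBS tumours), and 1 of 3 tested genes, Mucl1, was lower. Of 10 adipocyte markers 5 were analysed, and Plin4 alone made up most of their sum (means 215 CPM in SLR14 and 156 CPM in PBS tumours, edgeR adjusted p = 0.218), so the sum is not read as a level of adipocytes. The T cell sum overlapped, at 14.4 to 25.2 CPM in SLR14 and 14.8 to 26.3 CPM in PBS tumours, and was mostly Lck and Cd4. The T cell receptor subunit gene Cd3e averaged 1.15 CPM in SLR14 and 0.183 CPM in PBS tumours (log2 fold change 2.57, edgeR adjusted p = 0.0791), and Cd8a 1.10 CPM in SLR14 and 0.240 CPM in PBS tumours (log2 fold change 2.15, edgeR adjusted p = 0.111). Of 5 T cell genes past the filter edgeR called 0, with 2 at an unadjusted p under 0.05, and limma voom called 1. DESeq2, without the filter, called 2 of the 9 analysed. Endothelial (163 to 225 CPM in SLR14, 136 to 256 CPM in PBS) and skeletal muscle sums (2.26 to 251 CPM in SLR14, 41.5 to 256 CPM in PBS) overlapped, with 0 genes called by edgeR, by DESeq2 and by limma voom and 0 at an unadjusted p under 0.05.

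Both groups carried messages of the kidney factors Pax8 and Pax2, of simple-epithelium keratins and of E-cadherin, while Epcam and Lhx1, also used to read renal epithelial identity, were low. Levels per length, in CPM per kb of exon, put Krt8 first with a mean of 772 over the 10 tumours, then Krt18 with 607 and Vim with 530. These values ranked 16, 26 and 34 among 15283 tested genes with a known length. Cdh1 followed with 37.1, Pax8 with 16.1 and Pax2 with 7.14 CPM per kb. Epcam had 0.927, Lhx1 0.0876 and Cdh2 0.0581 CPM per kb. Cdh1 was above Pax8, and Pax8 above Pax2, in all 10 tumours. Krt8 was above Krt18 in all 10 and Krt18 above Vim in 9 tumours, and Lhx1 above Cdh2 in 9. Epcam was above Lhx1 in 8 tumours, and their ranges overlapped. With the longest transcript in place of all exons, Vim came first with 859 CPM per kb, and Cdh2 (0.0968) stood above Lhx1 (0.0927), so the orders of Vim against the keratins and of Cdh2 against Lhx1 depend on the length used.

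**Figure D1:**
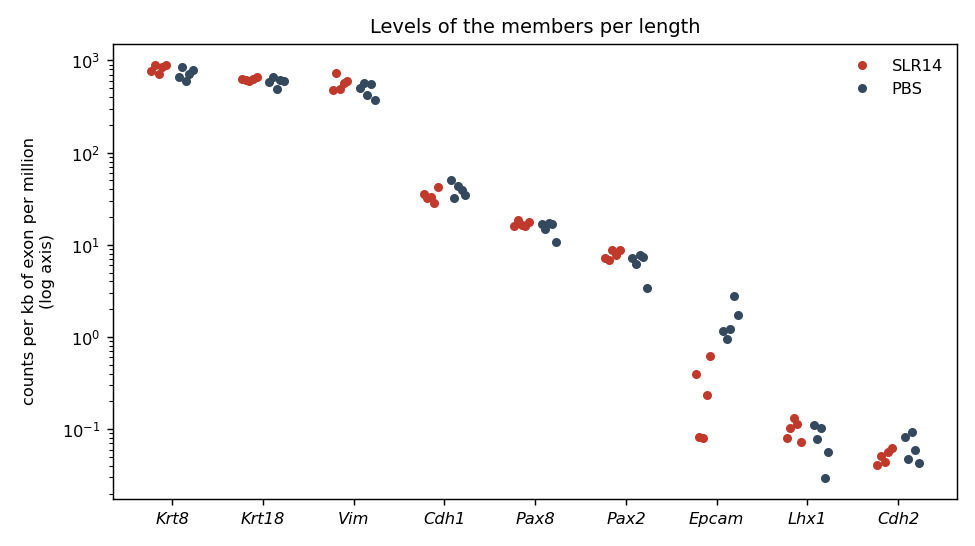
Levels of the 9 members in CPM per kb of exon on a log axis, 1 point per tumour, SLR14 in red and PBS in dark blue. Krt8, Krt18 and Vim lie near 370 to 898, Cdh1, Pax8 and Pax2 between 3.41 and 50.8, and Lhx1 and Cdh2 at or below 0.131, while Epcam separates by group.

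Of the nephron factors, Pax8 and Pax2 were well expressed and did not pass the test between groups. Pax8 (ENSMUSG00000026976) had 98.1, 113, 99.0, 97.2 and 107 CPM in SLR14 tumours 1 to 5, against 101, 89.4, 106, 101 and 64.2 CPM in PBS tumours 1 to 5. The groups overlapped, and PBS 5 was the lowest of all 10. Its log2 fold change was 0.16 (95% interval -0.11 to 0.43, edgeR adjusted p = 0.651), which corresponds to a fold of 0.926 to 1.34. Pax2 (ENSMUSG00000004231) had 38.7, 36.7, 47.8, 42.4 and 47.8 CPM in SLR14 tumours, against 39.1, 33.6, 42.1, 39.6 and 18.4 CPM in PBS tumours. Here 3 SLR14 tumours lay above every PBS tumour, and PBS 5 was again the lowest. The log2 fold change of Pax2 was 0.30 (95% interval -0.09 to 0.70, edgeR adjusted p = 0.570). PBS 5 also had the highest summed erythroid level, 173 CPM, and its part in these values was not tested. Without PBS 5 the log2 fold changes were 0.05 for Pax8 and 0.14 for Pax2 (edgeR adjusted p = 0.865 and 0.640).

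Lhx1 (ENSMUSG00000018698) was near the limit of detection. It had 8, 7, 21, 9 and 11 counts in SLR14 tumours 1 to 5, against 13, 10, 11, 4 and 6 counts in PBS tumours. These are 0.293 to 0.533 CPM in SLR14 and 0.120 to 0.453 CPM in PBS tumours, and the groups overlapped. The log2 fold change was 0.41 with a wide 95% interval of -0.41 to 1.22 (edgeR adjusted p = 0.696), so a fold anywhere from 0.755 to 2.33 is within the interval at this depth.

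**Figure D2:**
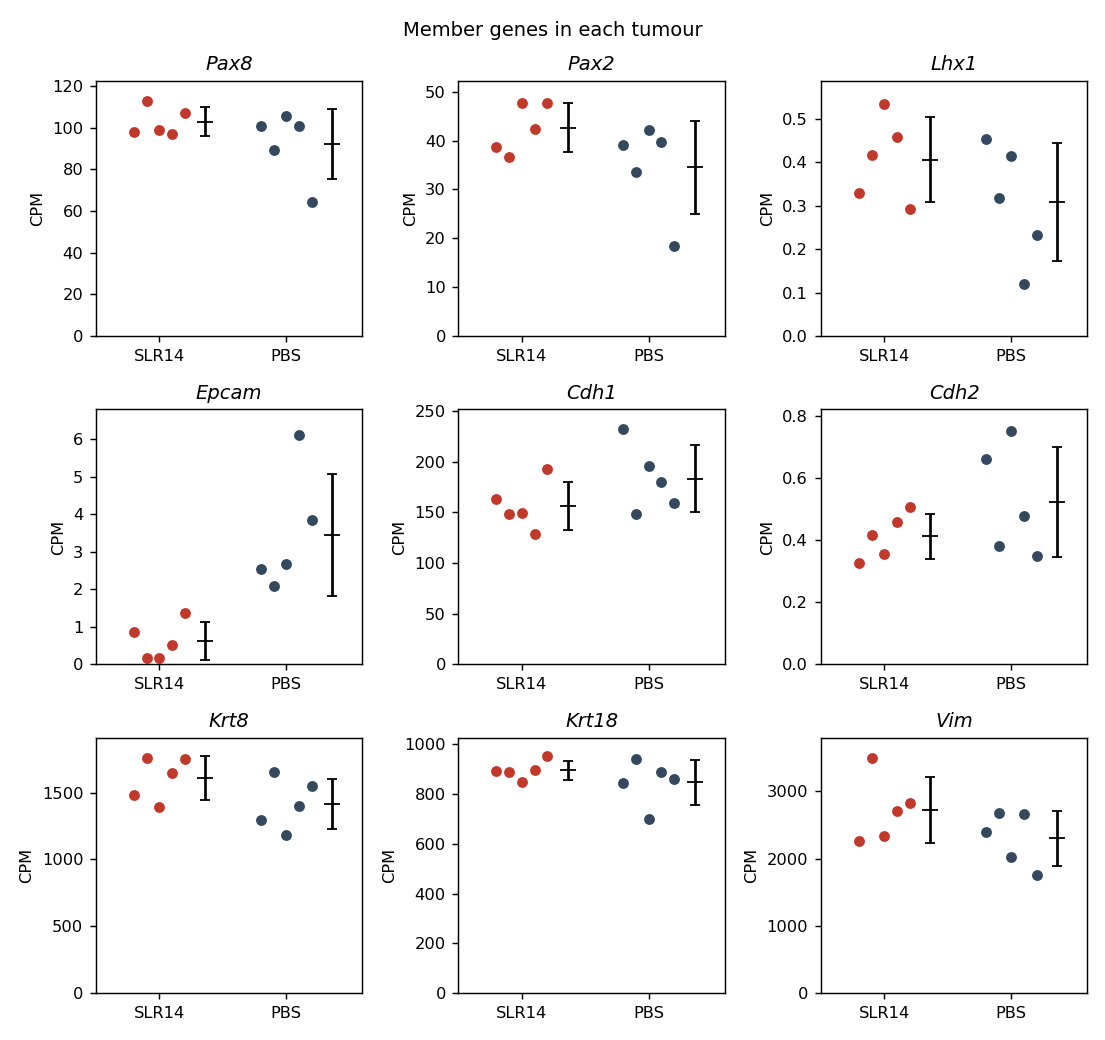
CPM of each member in the 5 SLR14 tumours (red, left) and the 5 PBS tumours (dark blue, right), in tumour order, with the mean and SD in black. Epcam is the member whose groups do not overlap, at 0.178 to 1.36 CPM in SLR14 and 2.09 to 6.11 CPM in PBS tumours.

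Epcam was the member that changed. Epcam (ENSMUSG00000045394) encodes a surface glycoprotein of epithelia, and in the mouse also of Langerhans cells, the dendritic cells of the epidermis. It had 21, 3, 7, 10 and 51 counts in SLR14 tumours 1 to 5, against 73, 66, 71, 204 and 99 counts in PBS tumours. In CPM these were 0.861, 0.179, 0.178, 0.510 and 1.36 in SLR14 tumours, against 2.54, 2.09, 2.68, 6.11 and 3.83 in PBS tumours. Every SLR14 tumour was below every PBS tumour, and the highest tumour of each group was a tumour with keratinocyte markers, SLR14 5 and PBS 4. The means were 0.617 ± 0.502 CPM in SLR14 and 3.45 ± 1.62 CPM in PBS tumours (SD, n = 5 each). Epcam fell by 2.42 on the log2 scale (SE 0.49, 95% interval -3.47 to -1.37, edgeR adjusted p = 0.0324), a fold of 0.187. Of the 9 members, 1 was lower and 0 were higher past the threshold, beside 0.29% lower and 0.674% higher over all genes, and ranges in which every SLR14 tumour was the lower held for 1.32% of all genes.

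The sequence before the start of Epcam is shown because Epcam is the member that changed, and those of Krt8 and Krt18 because these neighbours are used together. Each is 300 bases from RefSeq on GRCm38.p6, 250 before and 50 after the annotated start, given on the gene's own strand. They lie at chr17:87635729-87636028 on the plus strand for Epcam, chr15:102004293-102004592 on the minus strand for Krt8 and chr15:102027966-102028265 on the plus strand for Krt18. The submitters named mm39, so these positions belong to the RefSeq table and not to the counts. Capitals mark CAGGTG, the E-box that factors of the Snail and Zeb families bind, or its reverse complement CACCTG, and TATAAA or its reverse complement TTTATA.
Epcam: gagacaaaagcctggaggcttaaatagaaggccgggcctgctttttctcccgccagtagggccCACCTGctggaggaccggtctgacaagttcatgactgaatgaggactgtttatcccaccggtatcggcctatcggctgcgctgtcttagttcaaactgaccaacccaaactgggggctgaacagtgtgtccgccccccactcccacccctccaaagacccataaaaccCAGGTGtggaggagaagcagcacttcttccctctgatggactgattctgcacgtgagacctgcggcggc
Krt8: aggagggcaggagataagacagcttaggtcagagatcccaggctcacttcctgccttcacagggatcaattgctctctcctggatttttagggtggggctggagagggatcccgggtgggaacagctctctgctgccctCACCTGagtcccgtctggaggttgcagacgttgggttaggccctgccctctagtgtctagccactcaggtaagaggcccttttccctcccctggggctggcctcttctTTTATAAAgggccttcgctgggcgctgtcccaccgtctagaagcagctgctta
Krt18: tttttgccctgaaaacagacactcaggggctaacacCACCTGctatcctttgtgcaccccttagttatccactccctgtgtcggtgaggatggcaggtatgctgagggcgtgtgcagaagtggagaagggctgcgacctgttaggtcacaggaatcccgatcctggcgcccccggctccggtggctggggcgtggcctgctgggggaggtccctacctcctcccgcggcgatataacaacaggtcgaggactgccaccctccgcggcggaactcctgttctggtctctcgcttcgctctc
The E-box letters matched in 2 places in Epcam, 1 in Krt8 and 1 in Krt18, and in 20.2% of all 32851 windows of this length in the table. The TATA letters matched in Krt8, where the 2 strands overlap in 1 stretch, and in 13.6% of all windows, and the GC box GGGCGG (reverse complement CCGCCC) matched once in Epcam and in 35.7% of windows. AP-1 letters, TGANTCA on either strand, matched in none of the 3 windows and in 7.81% of all windows. A match describes letters in this window and not a site in use. Of the 9 members 7 had an entry in the table.

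The direction was the same in each alternative fit, but leaving out any 1 of 7 tumours (PBS 1, PBS 3, PBS 4, SLR14 1, SLR14 2, SLR14 3, SLR14 4) put the edgeR adjusted p at 0.0547 to 0.0936, past 0.05. Leaving out both tumours with keratinocyte markers, a choice made once the values were known, the log2 fold change was -2.69 (edgeR adjusted p = 0.0193).

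Epcam was a minor message in these tumours. Within a tumour, the log2 ratio of its level per length to that of Vim was -13.1 to -9.91 in SLR14 and -9.21 to -7.65 in PBS tumours, with no test. Markers of dendritic and Langerhans cells were read beside it, from a list of 10 genes chosen after the Epcam values were seen, of which 8 were tested. Their summed level was 65.2 to 92.3 CPM in SLR14 and 82.4 to 129 CPM in PBS tumours, highest in PBS 4. How many of the 8 tested genes passed was not counted, and not all 10 are named here. Cd207, which encodes langerin of Langerhans cells, had 0.410, 0.238, 0.584, 0.204 and 0.693 CPM in SLR14 tumours, against 1.01, 1.81, 0.528, 2.81 and 1.47 CPM in PBS tumours. Cd207 was highest in the same tumour of each group as Epcam, overlapped between groups, and did not pass (log2 fold change -1.75, edgeR adjusted p = 0.102). Zbtb46, a transcription factor of classical dendritic cells, had a mean of 2.07 CPM in SLR14 and 3.94 CPM in PBS tumours (log2 fold change -0.93, edgeR adjusted p = 0.0398). Flt3 and Itgax, also read for dendritic cells, overlapped between groups and did not pass (log2 fold change -1.32 and -0.72, edgeR adjusted p = 0.432 and 0.37). The part of these cells in the Epcam result was not tested.

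The tested genes whose profile over the 10 tumours lay closest to that of Epcam were Adam23, Mgl2 and Cd209d. The measure is the root mean square difference of mean-centred log2(CPM + 1) values, which was 0.214 for Adam23, 0.328 for Mgl2 and 0.329 for Cd209d, against a median of 0.85 over all tested genes with an established symbol. Adam23, a membrane protein of the disintegrin and metalloproteinase family, averaged 1.09 CPM in SLR14 and 5.48 CPM in PBS tumours. Mgl2, a galactose-binding lectin of macrophages and dendritic cells, averaged 18.6 CPM in SLR14 and 49.9 CPM in PBS tumours. Cd209d, a C-type lectin related to DC-SIGN, averaged 0.0621 CPM in SLR14 and 1.49 CPM in PBS tumours, with 0 counts in 3 SLR14 tumours. The measure takes in the difference between the groups, which all 3 share with Epcam in direction.

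**Figure D3:**
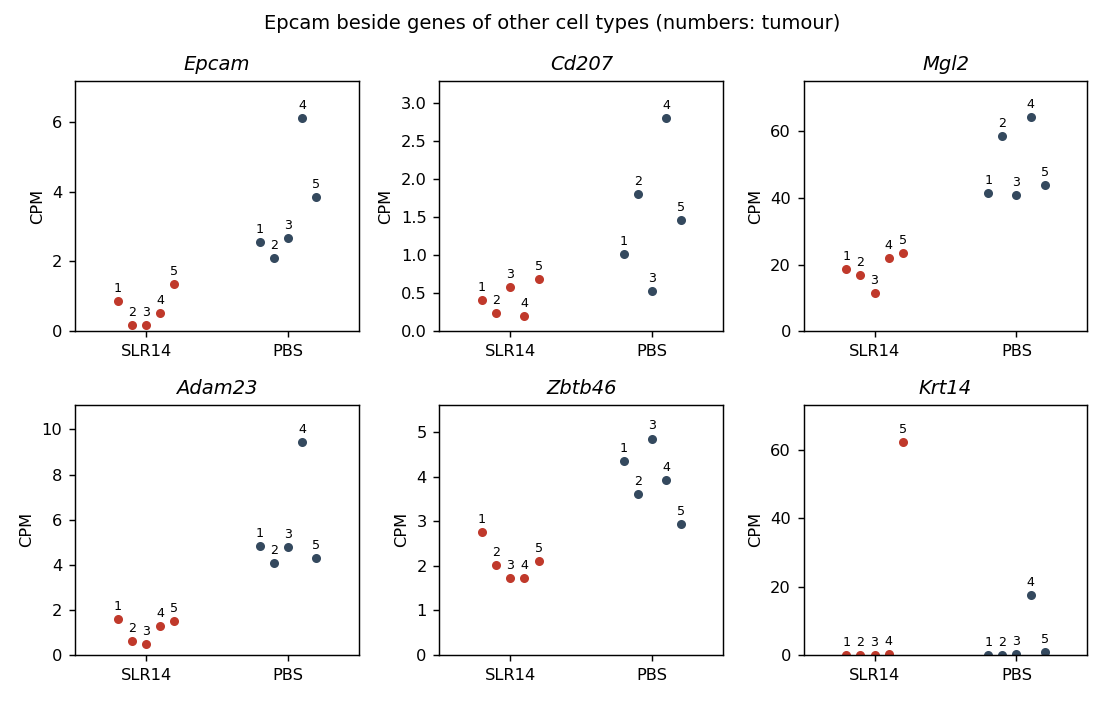
CPM of Epcam, of Cd207, Mgl2, Adam23 and Zbtb46, and of the keratinocyte keratin Krt14, in the SLR14 tumours (red, left) and the PBS tumours (dark blue, right), with the tumour number above each point. PBS 4 is the highest PBS tumour for Epcam, Cd207, Mgl2, Adam23 and Krt14, and SLR14 5 the highest SLR14 tumour for Epcam, Cd207, Mgl2 and Krt14, which had 62.3 CPM there.

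The cadherins showed E-cadherin and almost no N-cadherin. Cdh1 (ENSMUSG00000000303), which encodes E-cadherin, had 163, 148, 149, 129 and 193 CPM in SLR14 tumours 1 to 5, against 232, 149, 196, 180 and 159 CPM in PBS tumours. The groups overlapped, and 2 SLR14 tumours lay below every PBS tumour. The log2 fold change was -0.23 (95% interval -0.52 to 0.07, edgeR adjusted p = 0.576). Cdh2 (ENSMUSG00000024304), which encodes N-cadherin, had 8, 7, 14, 9 and 19 counts in SLR14 tumours, against 19, 12, 20, 16 and 9 counts in PBS tumours. It spanned 0.328 to 0.506 CPM in SLR14 and 0.349 to 0.754 CPM in PBS tumours, and did not pass (log2 fold change -0.34, 95% interval -1.01 to 0.33, edgeR adjusted p = 0.694). Per length, Cdh1 exceeded Cdh2 by 9.39 ± 0.304 log2 units in SLR14 and 9.31 ± 0.299 log2 units in PBS tumours (SD, n = 5 each). E-cadherin message was the far more abundant one in every tumour, and the ranges of this ratio overlapped between groups.

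Krt8 and Krt18 were among the most abundant messages, and neither passed the test between groups. Krt8 (ENSMUSG00000049382), the type II chain, had 1484, 1759, 1389, 1646 and 1754 CPM in SLR14 tumours 1 to 5, against 1298, 1655, 1180, 1397 and 1546 CPM in PBS tumours. The groups overlapped, with SLR14 2 and SLR14 5 above every PBS tumour. The log2 fold change was 0.18 (95% interval -0.07 to 0.44, edgeR adjusted p = 0.594). Krt18 (ENSMUSG00000023043), the type I partner, had 892, 890, 849, 898 and 955 CPM in SLR14 tumours, against 844, 943, 702, 889 and 860 CPM in PBS tumours. It overlapped too, and its log2 fold change of 0.08 had the narrowest 95% interval of the members, -0.13 to 0.29 (edgeR adjusted p = 0.763). The pseudogene Krt8-ps was counted separately at 1.90 to 3.57 CPM in SLR14 and 1.96 to 2.82 CPM in PBS tumours, and how reads shared between it and Krt8 were divided is uncertain.

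Both keratin genes lie near each other on chromosome 15, on opposite strands, with 0 protein-coding genes wholly between them in the RefSeq table. Per length, the log2 ratio of Krt8 to Krt18 was 0.264 to 0.536 in SLR14 and 0.174 to 0.399 in PBS tumours. Over the 10 tumours they correlated with Pearson's r = 0.832 (permutation p = 0.00097, adjusted 0.0272) and Spearman's rho = 0.83 (permutation p = 0.00482, adjusted 0.135). The adjustment was over 28 pairs, all pairs of the 8 members other than Epcam, whose values fall into 2 separate groups. Without PBS 3 and PBS 1, the tumours farthest from the median of Krt8, r was 0.662 (permutation p = 0.0776, adjusted 0.556), which did not pass. Only 8 tumours were left, which also weakens the test. With each group centred on its own mean, r was 0.804 over the 10 tumours, with no test. Krt8 and Krt18 were the pair past an adjusted p of 0.05 by Pearson's r, and 0 pairs passed by Spearman's rho. Pax2 and Pax8 had r = 0.887 and rho = 0.43 (permutation p = 0.0206 and 0.217, adjusted 0.196 and 0.607), and r was 0.173 without PBS 5 and SLR14 5.

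Vim (ENSMUSG00000026728), the mesenchymal filament gene, was high in every tumour and did not pass. It had 2263, 3494, 2335, 2708 and 2834 CPM in SLR14 tumours 1 to 5, against 2402, 2680, 2017, 2659 and 1755 CPM in PBS tumours. The groups overlapped, SLR14 2 was the highest and PBS 5 the lowest. The log2 fold change was 0.24 (95% interval -0.08 to 0.57, edgeR adjusted p = 0.584), and 0.05 without both PBS 5 and SLR14 2 (edgeR adjusted p = 0.915). Markers of fibroblasts, which also make vimentin, had their lowest summed level in SLR14 2, and spanned 438 to 1510 CPM in SLR14 and 819 to 3320 CPM in PBS tumours. Of 9 fibroblast genes tested, 2 were lower and 0 higher past the edgeR threshold, beside 0.29% lower and 0.674% higher over all genes. Their median log2 fold change was -0.91, 0 of them had a positive one, and 6 were at an unadjusted p under 0.05. Macrophage markers summed to 1810 to 2290 CPM in SLR14 and 1840 to 2360 CPM in PBS tumours, and the part of these cells in the Vim values was not tested.

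**Figure D4:**
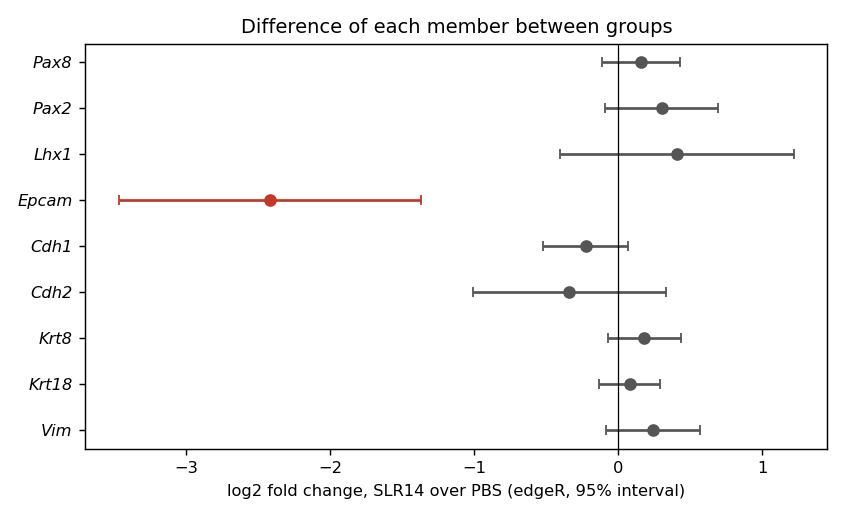
Log2 fold change of each member, SLR14 over PBS, with its 95% interval from edgeR, red where the adjusted p is under 0.05. The interval of Epcam, -3.47 to -1.37, excludes 0, and those of the other 8 members include it.

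Other kidney genes were expressed and did not pass in edgeR. Of 20 nephron lineage regulators 13 were analysed and 9 tested, and the number passing was 0 by edgeR, by DESeq2 and by limma voom, with 1 at an unadjusted p under 0.05 and a median log2 fold change of 0.15. The median over all genes tested was -0.01. Tfcp2l1, a factor of the distal nephron and collecting duct, had a mean of 227 CPM in SLR14 and 208 CPM in PBS tumours. PBS 5 had 110 CPM of it, the lowest of all tumours, and the other PBS tumours 222 to 255 CPM. Of 22 proximal tubule genes 10 had a row in the count table and 9 were tested. Those with no row included Slc34a1, Slc22a6 and Slc5a2. In this list 0 passed by edgeR, by DESeq2 and by limma voom, with 2 at an unadjusted p under 0.05 and a median of -0.09. Gpx3, a secreted glutathione peroxidase, had a mean of 552 CPM in SLR14 and 662 CPM in PBS tumours, and the water channel gene Aqp1 56.9 CPM in SLR14 and 76.1 CPM in PBS tumours. Without both tumours with keratinocyte markers, Ggt1, which encodes gamma-glutamyltransferase, passed (log2 fold change 1.01, edgeR adjusted p = 0.0330).

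Of 20 genes of the loop, distal tubule and collecting duct, 10 were analysed and 8 tested. Among the tested genes, Slc4a1 is also in the erythroid list and Pvalb in the skeletal muscle list. Slc4a1 had a log2 fold change of -0.64 (edgeR unadjusted p = 0.0132), and the part of blood or muscle in these values was not tested. In edgeR 0 passed, with 4 at an unadjusted p under 0.05 and a median of 0.12, while DESeq2 called 1 and limma voom 0. That gene was Cdh16, the kidney-specific cadherin. Cdh16 had 228, 294, 187, 270 and 242 CPM in SLR14 tumours 1 to 5, against 331, 341, 409, 358 and 315 CPM in PBS tumours. Every SLR14 tumour was below every PBS tumour, as for 1.32% of all genes. Its log2 fold change was -0.52 (SE 0.125, edgeR adjusted p = 0.0788), and DESeq2 gave -0.51 (adjusted p = 0.00907). In edgeR it passed without PBS 5 (adjusted p = 0.0359) and without both PBS 5 and SLR14 2 (adjusted p = 0.0114). Wnk4, a kinase that controls salt transport, had a mean of 204 CPM in SLR14 and 179 CPM in PBS tumours, with 111 CPM in PBS 5 and 193 to 203 CPM in the other PBS tumours.

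Genes of epithelial junctions and of the epithelial programme did not pass in edgeR either. Of 27 junction and polarity genes 22 were analysed and 20 tested, with 0 passing in edgeR, 2 at an unadjusted p under 0.05, 1 called by DESeq2 and 0 by limma voom, and a median of 0.06. The catenin genes Ctnnb1 and Ctnna1, whose products link cadherins to actin, had means of 705 and 572 CPM in SLR14 and 667 and 547 CPM in PBS tumours. PBS 5 was the lowest of all tumours for both catenin genes, at 539 and 318 CPM. The DESeq2 call was Pkp3, a desmosomal plakophilin, with means of 13.8 CPM in SLR14 and 10.2 CPM in PBS tumours (log2 fold change 0.44, edgeR adjusted p = 0.127, DESeq2 adjusted p = 0.0202). Of 22 regulators and surface genes of the epithelial programme 15 were analysed and 12 tested, with 0 passing by edgeR, by DESeq2 and by limma voom, 1 at an unadjusted p under 0.05 and a median of 0.13. Cd24a, a surface sialoglycoprotein, had a mean of 224 CPM in SLR14 and 248 CPM in PBS tumours, and the protease inhibitor gene Spint2 202 CPM in SLR14 and 192 CPM in PBS tumours. Of the 5 other simple-epithelium keratins 4 were tested, with 0 passing by edgeR, by DESeq2 and by limma voom, 0 at an unadjusted p under 0.05 and a median of 0.27. Krt80 was the most abundant of them, with means of 312 CPM in SLR14 and 232 CPM in PBS tumours, and Krt20 had 5.50 CPM in SLR14 and 5.14 CPM in PBS tumours.

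On the mesenchymal side, 14 of 16 transcription factors of epithelial-mesenchymal transition were tested, with 0 passing by edgeR, by DESeq2 and by limma voom, 4 at an unadjusted p under 0.05 and a median of -0.03. Tcf3, an E-protein, had a mean of 182 CPM in SLR14 and 145 CPM in PBS tumours (log2 fold change 0.33, edgeR adjusted p = 0.362), and Zeb2 102 CPM in SLR14 and 93.9 CPM in PBS tumours. PBS 5 was the lowest of all tumours for both genes, at 101 CPM for Tcf3 and 56.0 CPM for Zeb2. Of the 4 at an unadjusted p under 0.05, Tcf3 had a positive log2 fold change and 3 had negative ones, -1.54 for Snai2, -0.87 for Twist1 and -0.37 for Prrx1 (edgeR adjusted p = 0.362, 0.452 and 0.422). Snai2 and Twist1 were low, at means of 0.214 and 0.692 CPM in SLR14 and 0.667 and 1.27 CPM in PBS tumours. Of 20 mesenchymal state genes 20 were tested, with 0 passing in edgeR, 5 at an unadjusted p under 0.05, 1 called by DESeq2 and 0 by limma voom, and a median of -0.03. Itgb1, the integrin beta 1 gene, had a mean of 1246 CPM in SLR14 and 1202 CPM in PBS tumours, and Sparc, a matrix glycoprotein, 678 CPM in SLR14 and 815 CPM in PBS tumours. The DESeq2 call was Vcan, the proteoglycan versican, at 13.7 CPM in SLR14 and 8.03 CPM in PBS tumours (log2 fold change 0.76, edgeR adjusted p = 0.129, DESeq2 adjusted p = 0.0210). Of the 5 at an unadjusted p under 0.05, Vcan and Itga5 had positive log2 fold changes, and Fn1, Thy1 and Sparc negative ones. These were 0.50 for Itga5, -0.67 for Fn1, -0.40 for Thy1 and -0.27 for Sparc (edgeR adjusted p = 0.154, 0.438, 0.402 and 0.442).

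**Figure D5:**
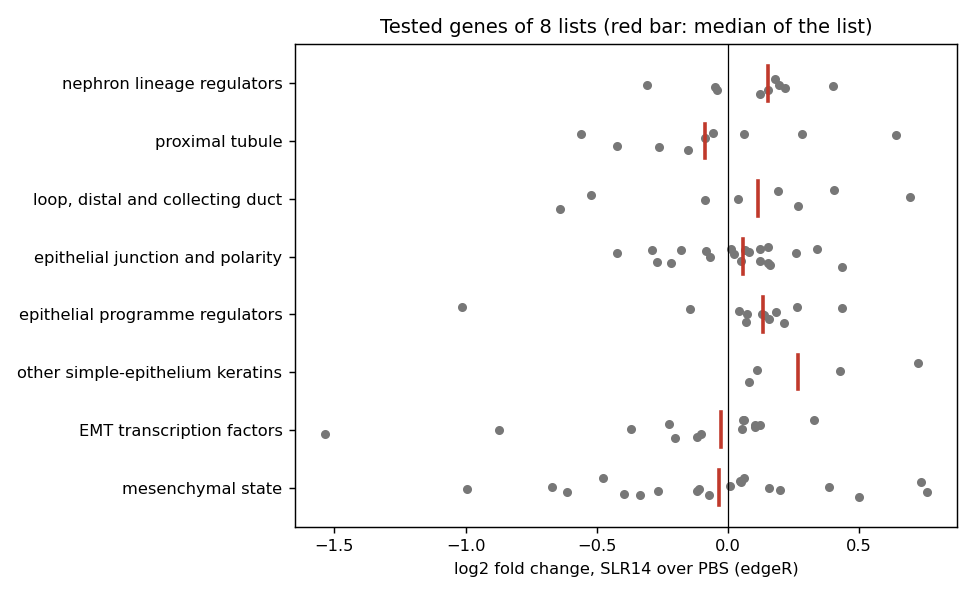
Log2 fold change, SLR14 over PBS, of the tested genes of 8 lists of nephron, epithelial and mesenchymal genes, 1 grey point per gene, with the median of each list as a red bar. The medians lie between -0.09 and 0.27, and 0 of the genes passed an edgeR adjusted p of 0.05.

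The genes closest in profile to Pax2 were Nectin1, Crtc1 and Tcof1, with root mean square differences of 0.0769, 0.0852 and 0.0891 against a median of 0.401. Those closest to Vim were Plod1, Scpep1 and Dennd2b, at 0.0934, 0.094 and 0.0948 against 0.321. With Epcam, these were the members with the largest SD of log2(CPM + 1) over the 10 tumours, 0.875 for Epcam, 0.38 for Pax2 and 0.276 for Vim, against 0.123 to 0.249 for the other 6. The pseudocount of 1 compresses differences at low CPM, so the small SDs of Lhx1 and Cdh2 do not show steady levels. In CPM, the SD as a share of the mean in PBS tumours was 44.1% for Lhx1, 33.7% for Cdh2, 27.6% for Pax2 and 17.7% for Vim. In SLR14 tumours it was 24.0%, 17.7%, 11.9% and 18.1% in that order.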

How the data were processed

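RNA of 10 tumours, 5 per group by the sample titles, was measured as polyadenylated RNA after ribosomal depletion, per the labels' protocols. The deposited raw counts per gene are whole numbers, with 1 column per tumour. The deposited normalized signal is the counts divided by 1 factor per tumour and served 1 alternative. Trim Galore 0.6.7, STAR, DESeq2 1.36.0 and mm39 are named in the submitters' processing notes. How reads were counted, on which strand and with which annotation is not given in the sources used here, and reads of overlapping, antisense and near-identical genes cannot be told apart.

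Genes were filtered with filterByExpr (minimum count 10), normalized by TMM and tested with edgeR 4.0.16 (glmQLFit, glmQLFTest) in R 4.3.3, SLR14 against PBS, no covariate, Benjamini-Hochberg threshold 0.05. The SE is the absolute log2 fold change over the square root of F. All 9 members passed the filter. CPM use TMM-scaled libraries. Lengths are exon unions of GENCODE M21 (GRCm38), which 17797 identifiers matched. Correlations of log2(CPM + 1) used 100000 permutations. Pairs within groups were no duplicates (20 pairs, chi-square over its degrees of freedom 7.66 to 134). The test was checked on simulated data.

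Members and lists were chosen with earlier results of these data known. Named are all members, and the 3 genes closest in profile to the 3 most variable members. Of each nephron, epithelial and mesenchymal list, each gene past the threshold and the 2 of highest mean CPM are named. The rule for cell type lists gives summed levels, and genes of these lists past the threshold are not all named. 1 item that this rule names is not reported here. Others, such as Cd207, Zbtb46, Flt3, Itgax, Pkp3, Vcan, Ggt1, Krt14, Krt10, Trp63, Sbsn, Krt8-ps, Trf, Mucl1, Plin4, Cd3e, Cd8a, Snai2, Twist1, Prrx1, Slc4a1, Pvalb, Itga5, Fn1 and Thy1, were chosen after their values were seen. Alternatives were edgeR with DESeq2 size factors or upper-quartile factors, DESeq2 1.42.0, limma 3.58.1 (voom, or the normalized values with a pseudocount of 1), no filter or 1 CPM in 5 samples, a replicate block, and leaving out tumours.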

Additional observations from a re-analysis of the deposited data

How the results depend on the processing

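Over all genes 153 passed, 107 higher and 46 lower, against 407 with DESeq2 (251 higher, 156 lower). Leaving out 1 tumour gave 69 to 194 (44 to 123 higher, 25 to 71 lower), and omission of PBS 1 (69), PBS 3 (78), SLR14 1 (77), SLR14 3 (75) or SLR14 4 (89) lowered the total by more than a factor of 1.5. Without both PBS 5 and SLR14 2, 74 were lower. Replicate numbers are shared between groups, but same-numbered tumours did not deviate together (r -0.25 to 0.138, and number 2 was the 1 of 5 that correlated best with its own number), and a fit with a replicate block called 78 (51 higher, 27 lower). Epcam had a log2 fold change of -2.61 with the block (edgeR adjusted p = 0.0292), -3.01 to -2.11 without 1 tumour, and -2.20 without both PBS 5 and SLR14 2 (edgeR adjusted p = 0.0567). It passed in 12 of 20 alternatives, with adjusted p from 3.87e-05 in DESeq2 to 0.0936. The other 8 members passed in 0 alternatives and kept their sign in each one that tested them, 17 for Lhx1, 18 for Cdh2 and 20 for each of the others.

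Among the lists, the count of 0 became 1 for the loop and collecting duct with DESeq2, without both PBS 5 and SLR14 2, and in the range of 0 to 1 without 1 tumour, 1 for junctions and 1 for the mesenchymal state with DESeq2, and 1 for the proximal tubule without both PBS 4 and SLR14 5, an alternative chosen after seeing the data. The count of correlated pairs was 1, and 0 without the 2 tumours farthest from the median. With the longest transcript, levels in PBS tumours moved to 27.2 CPM per kb for Pax8, 0.108 for Cdh2 and 787 for Vim. The causes were not tested. Counts of 3 to 51 for Epcam in SLR14 tumours and 4 to 21 for Lhx1 limit the precision of both.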
